A study of Mus musculus with 6 samples.

Results

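The transcripts described here are those of Trp53, the gene of the transcription factor p53, and of 9 genes that p53 is known to switch on. These are Cdkn1a, Mdm2, Ccng1, Phlda3, Zmat3, Aen, Trp53inp1, Sesn2 and Perp. They were chosen by gene symbol, through the Ensembl identifiers of the table, and 10 of 10 were found among 21135 genes. RNA was sequenced from DN3 thymocytes of C57BL/6 mice, the stage of early T-cell development at which the T-cell receptor beta chain is assembled. In 3 libraries the NMe enhancer of Myc was wild type, and in 3 both alleles carried mutations of GATA sites 1 and 2 of NMe, which are motifs of the kind bound by Gata3. The labels give no age, no sex and no treatment, and do not say whether each library came from a separate mouse. The comparison addresses how the mutated sites affect the transcriptome, and here how the p53 pathway stands in cells with less Myc RNA.

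p53 is held low in unstressed cells by Mdm2, a ubiquitin ligase that marks p53 for destruction and whose own gene is a p53 target. When DNA is damaged, or when ribosome assembly fails and free ribosomal proteins bind Mdm2, p53 accumulates and activates genes of cell cycle arrest, DNA repair, metabolism and death. In the thymus p53 is known for removing cells with unrepaired T-cell receptor rearrangements, and it restrains DN3 cells that lack a pre-T-cell receptor. Much of this control acts on the p53 protein, which was not measured here.

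Levels are normalised read counts, that is, reads per gene divided by 1 size factor per library by the authors. The libraries held 38.6 to 51.3 M reads. Myc, the gene that NMe regulates, was at 18041, 19223 and 20196 in the wild-type libraries and at 5562, 4612 and 6165 in the mutant libraries, so the mutant libraries lay well below the wild type. The 9 DN3 markers listed were present in each library, with Il2ra, which encodes CD25, at 55810 or more. Among double positive markers Cd4 stayed at 85.4 or less, while Aqp11 was at 14303 or more. Of the 9 DN3 markers 7 rose, Rag1 fell (log2 change -0.58) and Ptcra was not called in the mutant, by the test given below. That is 88.9% called, against 18.8% of all tested genes (7.94% higher and 10.9% lower). Cells at somewhat different points of the DN3 stage and altered RNA per cell cannot be told apart in such bulk samples. Of markers of other cells, 3 of 5 tested genes of gamma-delta T or innate lymphoid cells rose (Nkg7 2.15-fold, Blk 1.68-fold and Sox13 1.52-fold). That is 60%, while Cd160 and Il2rb were not called (log2 changes of -0.05 and 0.10). The summed level of the 6 in the table was 7774 to 11188 in the wild type and 15217 to 23992 in the mutant. Of 4 tested genes of thymic stroma 2 rose (Pdgfrb 2.46-fold and Pecam1 1.32-fold, 50% called). Epcam and Col1a1 were not called (log2 changes of 0.21 and -0.44). The summed level of the stroma genes was 10996 to 13064 in the wild type and 17723 to 19653 in the mutant. Among markers of earlier progenitors 0 of 6 rose and 1 fell (16.7% called, near the 18.8% of all tested genes). Among those of double positive thymocytes 1 of 6 rose and 1 fell (33.3% called). Of the tested markers 0 of 2 of B cells, 0 of 4 of myeloid or dendritic cells and 0 of 5 of erythroid cells were called by limma. Levels differed widely within these lists. Zbtb16, a defining factor of innate-like lymphocytes, stayed at 21.7 normalised reads or less and was not tested. Nkg7 of the same list was at 4393 or more in each library. Col1a1, a collagen gene of fibroblasts, stayed at 18.0 or less, while Epcam, also of the stroma list, was at 4101 or more. The part of these other cells in the results below was not tested. Wild type replicate 2 stood apart by red-cell transcripts, with a summed level of 7251 over 5 erythroid markers against 38.3 to 103 in the other libraries. Wild type replicate 3 lay apart from the other wild-type libraries on the second principal component (-55.1 against 33.9 and 23.4). Immediate early and heat shock genes, which respond to handling, were highest in wild type replicate 1 (620384, summed over 12 genes) and mutant replicate 3 (821252), while the other wild-type libraries had 305654 and 314286 and the remaining mutant ones 448179 and 564827.

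Of the 10 genes, Cdkn1a and Zmat3 rose in the mutant, Trp53 and Aen fell, and 6 did not pass the test. The test was limma's moderated test on log2(value + 1), mutant minus wild type, with p-values adjusted over all 17815 genes that had a mean of at least 10, and a gene was called at an adjusted p under 0.05. Of all tested genes 18.8% were called, 7.94% higher and 10.9% lower (1414 and 1938 genes, against 1827 and 1647 with every library set to the same total), so that a called gene is no rarity in this comparison, and the 10 genes were picked with earlier results of these libraries known. The median log2 change was 0.01 over the 10 genes and 0.03 over all tested genes. For the same 4 genes all mutant libraries lay on one side of all wild-type libraries, which held for 38.3% of all tested genes (18.0% higher and 20.3% lower). edgeR and DESeq2, count models run on the recovered reads, called the same 4 of the 10, while calling 18.4% and 24.4% of the genes they tested. The targets thus did not move one way: 2 rose, 1 fell and 6 were not called, while the gene of p53 itself fell.

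**Figure D1:**
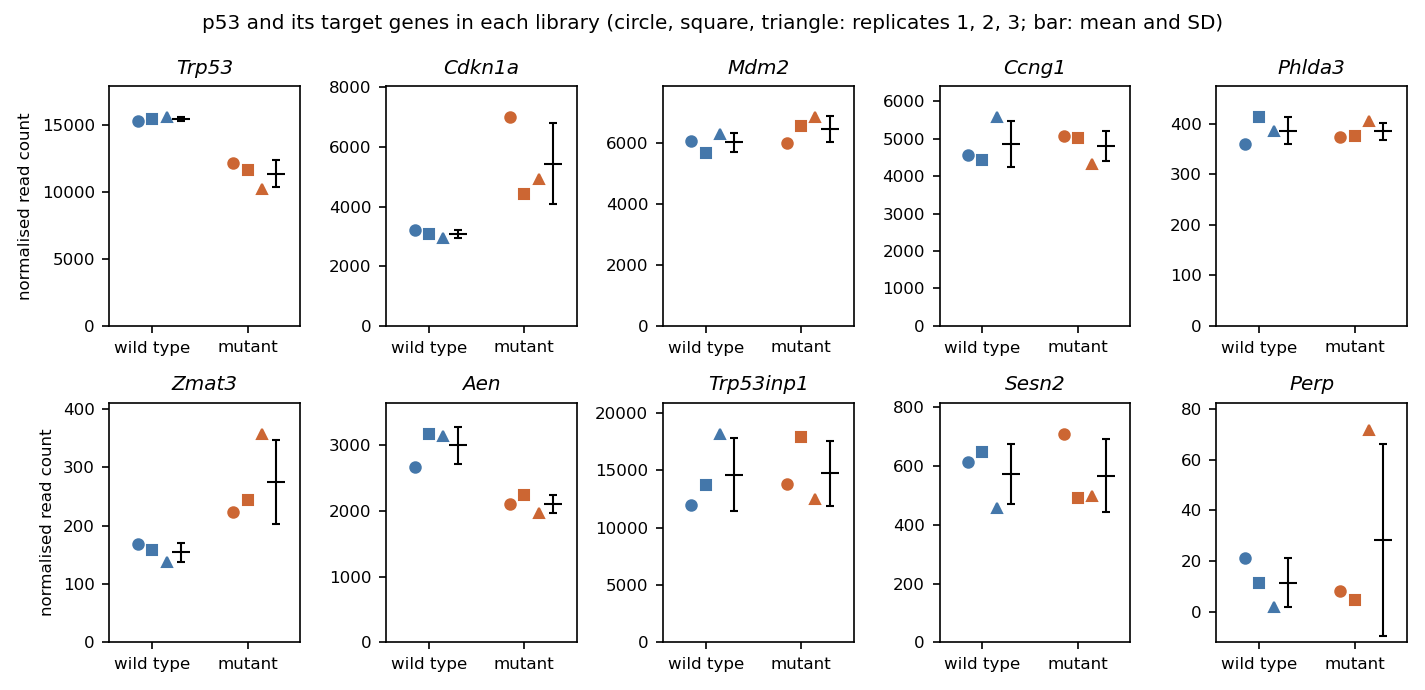
Normalised read count (vertical axis, from 0 except for Perp, whose error bar extends below 0) of each of the 10 genes in the 3 wild-type (blue) and 3 mutant (orange) libraries, with circle, square and triangle for replicates 1, 2 and 3 and a black bar for the mean and SD. The libraries of the genotypes do not overlap for Trp53, Cdkn1a, Zmat3 and Aen, and do for the other 6 genes.

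Trp53 lies on chromosome 11 (GRCm38, 69580359 to 69591873) and is protein coding. Wild-type libraries held 15308, 15459 and 15584 normalised reads of it, and mutant libraries 12189, 11651 and 10242. The wild-type libraries were nearly level, and each mutant library lay below all of them. The mean fell 1.36-fold, from 15450 ± 138 to 11361 ± 1005 (SD, n = 3 each), with a log2 change of -0.45 ± 0.09 (SE) whose 95% confidence interval ran from -0.66 to -0.24 (limma adjusted p = 0.0094). Without wild type replicate 2 the change was -0.45 with an adjusted p of 0.0458, and without wild type replicate 3 it was -0.44 with an adjusted p of 0.0294. Without both libraries that were highest in immediate early genes, wild type replicate 1 and mutant replicate 3, the log2 change was -0.38 and the call was lost (adjusted p = 0.0626). The processed pseudogene Trp53-ps on chromosome 17 took 99 recovered reads in all against 81842 for Trp53, and how reads shared between such near copies were counted is not stated.

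Cdkn1a lies on chromosome 17 (29090976 to 29100727) and encodes p21, the inhibitor of cyclin-dependent kinases that carries out much of the arrest ordered by p53. Its level was 3206, 3097 and 2952 in wild-type cells and 6996, 4429 and 4911 in mutant cells. The wild-type values lay close together, and mutant replicate 1 was the highest by a wide margin. The mean rose 1.77-fold, from 3085 ± 127 to 5445 ± 1364 (SD, n = 3 each), with a log2 change of 0.79 ± 0.16 (interval 0.44 to 1.14, limma adjusted p = 0.00695). The call held without each library in turn (log2 change 0.60 to 0.93, adjusted p up to 0.0285), and without the pair of libraries highest in immediate early genes the change was 0.88 (adjusted p = 0.0393). A transcript of unknown coding status, AC167363.2, overlaps 273 of its 3553 exon bases on the opposite strand, and the library kit does not record strand, so reads from that stretch cannot be assigned with certainty.

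Zmat3 (chromosome 3, 32334792 to 32366014) encodes a zinc finger protein that binds RNA and acts in splicing downstream of p53. It had 168.6, 157.6 and 137.0 normalised reads in wild-type cells and 222.7, 244.5 and 357.5 in mutant cells. Each mutant library was above each wild-type library, with mutant replicate 3 the highest. The mean rose 1.78-fold, from 154 ± 16.0 to 275 ± 72.4 (SD, n = 3 each; log2 change 0.80 ± 0.23, interval 0.29 to 1.31, limma adjusted p = 0.0357). This is the least secure of the 4 calls: the change ranged from 0.60 to 0.94 when 1 library was left out, and the call was lost without any 1 library other than mutant replicate 1 (adjusted p 0.0634 to 0.104), and without both libraries highest in immediate early genes (log2 change 0.66, adjusted p = 0.133).

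Aen (chromosome 7, 78895854 to 78911209) encodes a nuclease of the nucleus and nucleolus that p53 induces and that helps to degrade DNA in apoptosis. Its level was 2676, 3176 and 3149 in wild-type cells and 2109.6, 2249 and 1968 in mutant cells. All mutant libraries were below the lowest wild-type library, which was replicate 1. The mean fell 1.42-fold, from 3000.4 ± 281 to 2109 ± 140 (SD, n = 3 each; log2 change -0.51 ± 0.11, interval -0.76 to -0.25, limma adjusted p = 0.0134). Without wild type replicate 2 the change was -0.46 and the call was lost (adjusted p = 0.0663).

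Mdm2 (chromosome 10, 117688875 to 117710758), the ubiquitin ligase of the feedback loop, was at 6059, 5681 and 6305 in the wild-type libraries and at 5989, 6548 and 6842 in the mutant libraries. The genotypes overlapped. The log2 change was 0.10 ± 0.10, and its interval of -0.11 to 0.32 corresponds to a mutant level between 0.924 and 1.25 times that of the wild type (limma adjusted p = 0.501). A rise of Mdm2 as large as the fitted one of Cdkn1a lies outside this interval.

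Ccng1 (chromosome 11, 40748552 to 40755311), which encodes cyclin G1, a regulator of the Mdm2 loop, was at 4557, 4439 and 5568 in the wild-type libraries and at 5063, 5020 and 4334 in the mutant libraries. The highest and the lowest of these values came from replicates 3 of the wild type and of the mutant. Its log2 change was -0.01 ± 0.12 (interval -0.28 to 0.25, limma adjusted p = 0.96). Phlda3 (chromosome 1, 135766119 to 135769136), a competitor of the kinase Akt at membranes, was at 359.5, 412.5 and 385 in the wild-type libraries and at 374, 375 and 405 in the mutant libraries. Its values were interleaved, with a log2 change of -0.00 ± 0.15 (interval -0.35 to 0.34, limma adjusted p = 0.99). The sign of the change of both genes depended on the scaling, with values above 0 when every library was set to the same total (0.05 for Ccng1 and 0.06 for Phlda3).

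Trp53inp1 (chromosome 4, 11156431 to 11174379), a nuclear stress protein that favours the pro-apoptotic form of p53 and also acts in autophagy, was at 11969, 13752 and 18197 in the wild-type libraries and at 13804, 17935 and 12516 in the mutant libraries. The spread within each genotype was wide and covered the same range, and the log2 change was 0.02 ± 0.17 (interval -0.36 to 0.39, limma adjusted p = 0.957). Sesn2 (chromosome 4, 132492032 to 132510501) encodes sestrin 2, a leucine sensor that restrains mTORC1, and is a target of ATF4 as well as of p53. It was at 614, 646 and 457 in the wild-type libraries and at 709, 493 and 499 in the mutant libraries. Again the genotypes overlapped, with a log2 change of -0.02 ± 0.20 (interval -0.46 to 0.42, limma adjusted p = 0.956), which was 0.04 with equal library totals. For both genes the spread leaves room for a difference, since the intervals reach 1.31 times the wild-type level for Trp53inp1 and 1.34 times for Sesn2.

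Perp (chromosome 10, 18845020 to 18857073), a membrane protein of desmosomes and of p53-dependent death, was close to silent. Its 21.2, 11.5 and 1.78 normalised reads in wild-type cells rested on 20, 12 and 2 recovered reads, and its 8.44, 4.53 and 71.7 in the mutant libraries on 8, 5 and 65. Mutant replicate 3 alone held most of the reads of the mutant group. The log2 change of 0.77 ± 1.04 had an interval of -1.56 to 3.09 (limma adjusted p = 0.649) and was -0.34 without that library, so no difference was detectable at this depth.

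**Figure D2:**
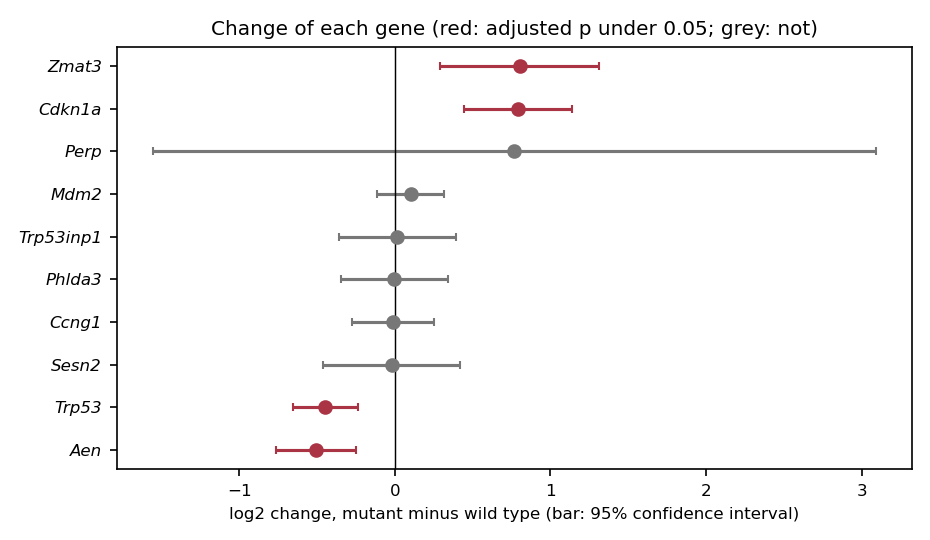
Log2 change of each of the 10 genes, mutant minus wild type (horizontal axis), with the 95% confidence interval of the limma fit as a bar; red marks an adjusted p under 0.05. The intervals of Zmat3 (0.29 to 1.31) and Cdkn1a (0.44 to 1.14) lie above 0, those of Trp53 (-0.66 to -0.24) and Aen (-0.76 to -0.25) below 0, and that of Perp is the widest (-1.56 to 3.09).

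Levels of different genes were compared per kb of exon sequence, as the normalised read count divided by the length of all annotated exons. In the wild type Trp53 was the highest at 3820 ± 34.2 normalised reads per kb, above 95.6% of protein-coding genes of the table, followed by Trp53inp1 (2261 ± 495), Ccng1 (1382 ± 177), Mdm2 (1183 ± 61.9) and Cdkn1a (868 ± 35.8). Aen (517 ± 48.4), Phlda3 (247 ± 17.0) and Sesn2 (165 ± 29.1) came next, and Zmat3 (13.5 ± 1.40) and Perp (5.88 ± 4.98) were far below. No neighbours in this order overlapped over the wild-type libraries. In the mutant Cdkn1a, at 1533 ± 384 per kb, stood above Ccng1 (1368 ± 117) and Mdm2 (1271 ± 85.2), and the libraries of these 3 genes overlapped. Trp53 and Trp53inp1, Trp53inp1 and Cdkn1a, and Zmat3 and Perp also overlapped as neighbours in the mutant order. Exons used by only some transcripts enter these lengths, and no value per transcript was used. The length counted for Zmat3 was 11435 bases.

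A ratio of 2 genes in the same library does not depend on how libraries are scaled, apart from the 1 added to each value before the logarithm. That addition matters for a rare transcript such as Perp. These ratios were chosen after the values had been seen, 9 against Mdm2 and 1 of Cdkn1a to Trp53. The log2 ratio of Cdkn1a to Mdm2 was -0.92, -0.88 and -1.09 in the wild type and 0.22, -0.56 and -0.48 in the mutant, a difference of 0.69. For Trp53 to Mdm2 it was 1.34, 1.44 and 1.31 in the wild type and 1.03, 0.83 and 0.58 in the mutant, a difference of -0.55. Zmat3 to Mdm2 differed by 0.70 and Aen to Mdm2 by -0.61. In these 4 ratios no mutant library overlapped a wild-type library. They belong to the same 4 genes whose own levels did not overlap, and Mdm2 changed little (log2 change 0.10), so they largely restate those genes. Levels did not overlap for 38.3% of all tested genes, and the share for ratios to Mdm2 was not computed. For each of the 4 ratios the two-sided exact permutation p was 0.1 (0.2 adjusted over 10 ratios). This is the smallest value that this test can give with 3 against 3 libraries, so it cannot bring such a ratio under 0.05. The ratio of Cdkn1a to Trp53 showed the widest gap, from -2.26, -2.32 and -2.40 in the wild type to -0.80, -1.40 and -1.06 in the mutant, which is a 2.36-fold difference (exact permutation p = 0.1). For Ccng1, Phlda3, Trp53inp1, Sesn2 and Perp the ratio to Mdm2 overlapped between the genotypes (exact permutation p from 0.4 to 1).

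**Figure D3:**
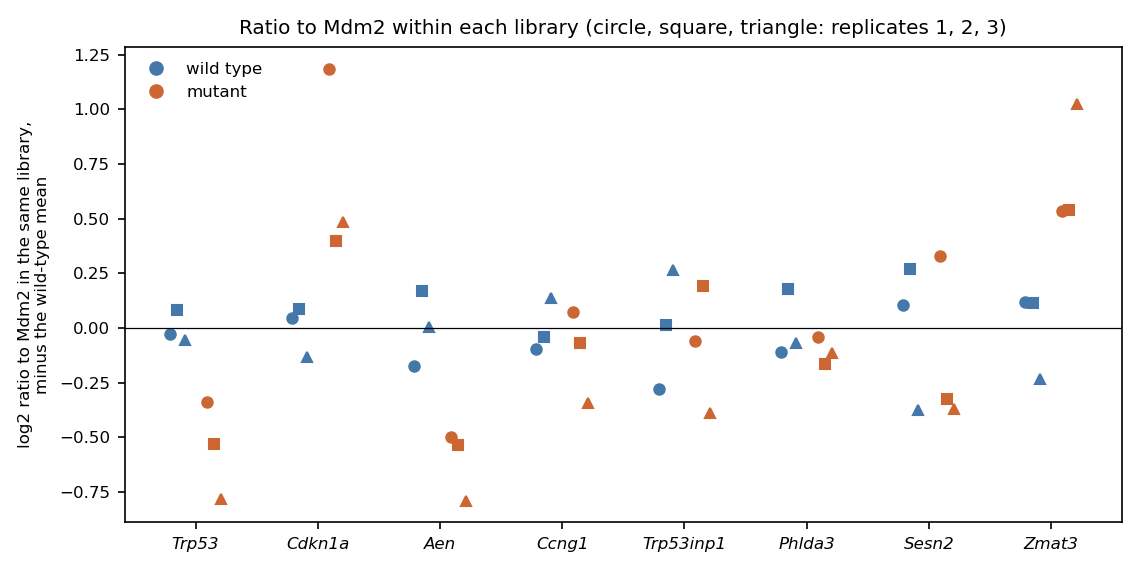
Log2 ratio of 8 of the genes to Mdm2 in the same library, minus the wild-type mean of that ratio (vertical axis), in wild-type (blue) and mutant (orange) libraries, with circle, square and triangle for replicates 1, 2 and 3. The mutant points lie above the wild-type points for Cdkn1a and Zmat3, below them for Trp53 and Aen, and overlap them for Ccng1, Trp53inp1, Phlda3 and Sesn2, with 1 or 2 mutant points of each outside the wild-type range.

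The letters before the gene starts were examined to set the known p53 element beside these changes. p53 binds a pair of copies of a 10-letter element, the p53 decamer, which is made of 3 purines, C, 2 letters that are A or T, G and 3 pyrimidines and reads the same on both strands. The decamer was searched in the RefSeq windows of 300 bases (build GRCm38.p6, 250 before and 50 after a gene start), which held 7 of the 10 genes (not Zmat3, Trp53inp1 or Perp). At least 1 decamer was present for 5 of these 7, against 7.98% of 10754 tested genes with a window. A pair of adjacent decamers with no mismatch was present for 0 of the 7 and for 0.0093% of the tested genes. With 1 mismatch allowed in each decamer outside its 4 central letters, a pair was present for Cdkn1a and for 0.13% of the tested genes. The stretches below, each 5′ to 3′ on the strand of the gene and ending before its start, show the decamer or pair in capitals, for the rising Cdkn1a, the falling Trp53 and Aen, and Mdm2 and Ccng1, which were not called.
Cdkn1a: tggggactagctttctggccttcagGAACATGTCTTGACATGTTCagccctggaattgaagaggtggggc
Trp53: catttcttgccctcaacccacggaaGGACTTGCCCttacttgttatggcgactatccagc
Aen: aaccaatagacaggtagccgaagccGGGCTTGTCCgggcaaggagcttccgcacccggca
Mdm2: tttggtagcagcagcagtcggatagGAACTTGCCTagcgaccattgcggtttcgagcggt
Ccng1: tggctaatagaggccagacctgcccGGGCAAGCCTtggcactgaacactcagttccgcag
The Cdkn1a stretch lies at chr17:29090903-29090972 on the plus strand, with the pair 51 to 32 bases before a RefSeq start, and a further decamer lies 73 to 64 bases before that start. Cdkn1a has another RefSeq window, around a start further downstream (chr17:29093519-29093818), which held 0 decamers. A gene with several windows was counted if any of them held the site. The Trp53 stretch is at chr11:69580259-69580318 (plus strand), that of Aen at chr7:78895912-78895971 (plus), that of Mdm2 at chr10:117710910-117710969 (minus) and that of Ccng1 at chr11:40755437-40755496 (minus). The decamer was thus present for the rising Cdkn1a, the falling Trp53 and Aen and the uncalled Mdm2 and Ccng1, Phlda3 and Sesn2 held none in these windows, and the rising Zmat3 was not searched. A match of letters is a description and does not show binding, and sites outside the windows were not searched.

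Regulators of p53 were taken from a list of 21 genes, of which 18 were in the table and tested. Among them 0 rose and 4 fell (22.2%, near the 18.8% of all tested genes), and the median log2 change was -0.01. At an unadjusted limma p under 0.05 there were 6 of the 18, of which 1 was higher. Over all 17815 tested genes there were 5940, of which 2825 were higher. edgeR called 0 higher and 4 lower, and DESeq2 0 higher and 5 lower. Of the 4, 3 encode ribosomal proteins that can bind and block Mdm2 when ribosome assembly is disturbed. Rpl5 fell 2.01-fold, from 24934 ± 1002 to 12379 ± 1797 (SD, n = 3 each; limma adjusted p = 0.000444). Rpl23 fell 1.8-fold and Rpl11 1.58-fold (limma adjusted p = 0.00136 and 0.00339). The fourth was Chek1, a checkpoint kinase active at stalled replication forks, which fell 1.43-fold, from 3015 ± 370 to 2102 ± 289 (limma adjusted p = 0.0258). Its call was lost without wild type replicates 2 or 3 and without mutant replicates 1 or 2, with adjusted p of at most 0.0841. The genes of the damage kinases Atm (-0.07) and Atr (-0.26), of Chek2 (-0.43), of the Mdm2 partner Mdm4 (0.13) and of the ubiquitin protease Usp7 (0.07), given here as log2 changes, did not pass. They were named after their values were seen.

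Other p53 targets came from a list of 46 genes, of which 45 were in the table and 43 were tested. Among them 4 rose and 4 fell (18.6%, against 18.8% of all tested genes), with a median log2 change of 0.01 against 0.03. As a list they therefore did not stand apart from the rest of the table. They are described by role below.

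In the group of cell cycle arrest and feedback 2 of 11 tested genes rose and 0 fell (18.2% called, against 18.8% of all tested genes). Gadd45a, a stress sensor that slows the cycle and aids repair, was at 574, 418 and 391.5 in the wild-type libraries and at 866, 785 and 1186 in the mutant libraries. It rose 2.05-fold (log2 change 1.03 ± 0.20, limma adjusted p = 0.00666), with no overlap between genotypes. Btg2, an antiproliferative cofactor of mRNA deadenylation, was at 25318, 19580 and 19272 in the wild type and at 33281, 29167 and 35551 in the mutant. It rose 1.53-fold (0.62 ± 0.12, limma adjusted p = 0.0076). Both genes are also known for rapid induction by stress. The immediate early and heat shock genes listed had a median log2 change of 0.62 in the same libraries. Of these 12 genes limma called Egr1 and Ier2 higher (16.7%, against 18.8% of all tested genes), while edgeR and DESeq2 each called 1. Without wild type replicate 1 and mutant replicate 3 the changes were 1.03 for Gadd45a (adjusted p = 0.0159) and 0.68 for Btg2 (adjusted p = 0.0128). The part of handling in these results was not tested. The ubiquitin ligase gene Fbxw7 (0.25 ± 0.12) and Sfn (0.68 ± 0.33), which encodes the arrest protein 14-3-3 sigma, did not pass.

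In the group of apoptosis 1 of 12 tested genes rose and 2 fell (25% called, against 18.8%). Siva1, an adaptor of death signalling, fell 1.57-fold, from 7152 ± 695 to 4557 ± 629, and Rps27l, a ribosomal protein paralogue, fell 1.51-fold, from 10117 ± 573 to 6717 ± 1081 (SD, n = 3 each; limma adjusted p = 0.00579 and 0.0075). Rps27l was the gene of this group whose window held a pair of decamers with at most 1 mismatch in each. Trp53i11 rose 1.42-fold (limma adjusted p = 0.0143), a call lost without wild type replicate 1 and mutant replicate 3 (adjusted p = 0.0797). The genes best known as effectors of p53-dependent death in thymocytes were not called in the main limma test. Bbc3, which encodes Puma, was at 281, 290 and 154 in the wild type and at 101, 97.8 and 228 in the mutant, with overlapping groups (log2 change -0.82 ± 0.36, limma adjusted p = 0.147, and -1.22 with adjusted p = 0.0296 without mutant replicate 3). With library weights Bbc3 was also called lower (log2 change -1.05, limma adjusted p = 0.0425). The log2 change was -0.10 for Bax, 0.99 for Pmaip1 and 0.50 for Fas, with adjusted p from 0.171 to 0.646. These 3 were named after their values were seen.

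In the group of DNA repair 1 of 9 genes rose and 2 fell (33.3% called, against 18.8%). Pcna, the sliding clamp of replication and repair, fell 1.3-fold, from 23020 ± 2241 to 17750 ± 720 (SD, n = 3 each; limma adjusted p = 0.0238). Its call was lost without wild type replicates 2 or 3 and without mutant replicates 1 or 2, with adjusted p of at most 0.0831. Ercc5, an endonuclease of nucleotide excision repair, rose 1.32-fold (limma adjusted p = 0.0449), and its call was lost without any 1 library other than mutant replicate 3 (adjusted p up to 0.145). Ddb2, a sensor of ultraviolet damage, changed by 0.12 ± 0.10 and did not pass.

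In the group of metabolism and stress 0 of 11 tested genes were called by limma, against 18.8% of all tested genes. At an unadjusted p under 0.05 there were 3 of the 11, against 5940 of all 17815, and edgeR called 0 and DESeq2 1, Prkab1. Prkab1, a subunit of AMP-activated kinase (0.32 ± 0.11, limma adjusted p = 0.0644), Gls2, the p53-induced glutaminase (-0.81 ± 0.28, adjusted p = 0.0711), the thiamine transporter gene Slc19a2 (-0.47 ± 0.18, adjusted p = 0.0941) and Tigar, which diverts sugar from glycolysis (-0.46 ± 0.23, adjusted p = 0.193), were nearest to the threshold. The DESeq2 adjusted p of Prkab1 was 0.0403, and with equal library totals its limma adjusted p was 0.0374. Gls2 was called lower with library weights (limma adjusted p = 0.0479) and Slc19a2 without mutant replicate 3 (limma adjusted p = 0.047).

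**Figure D4:**
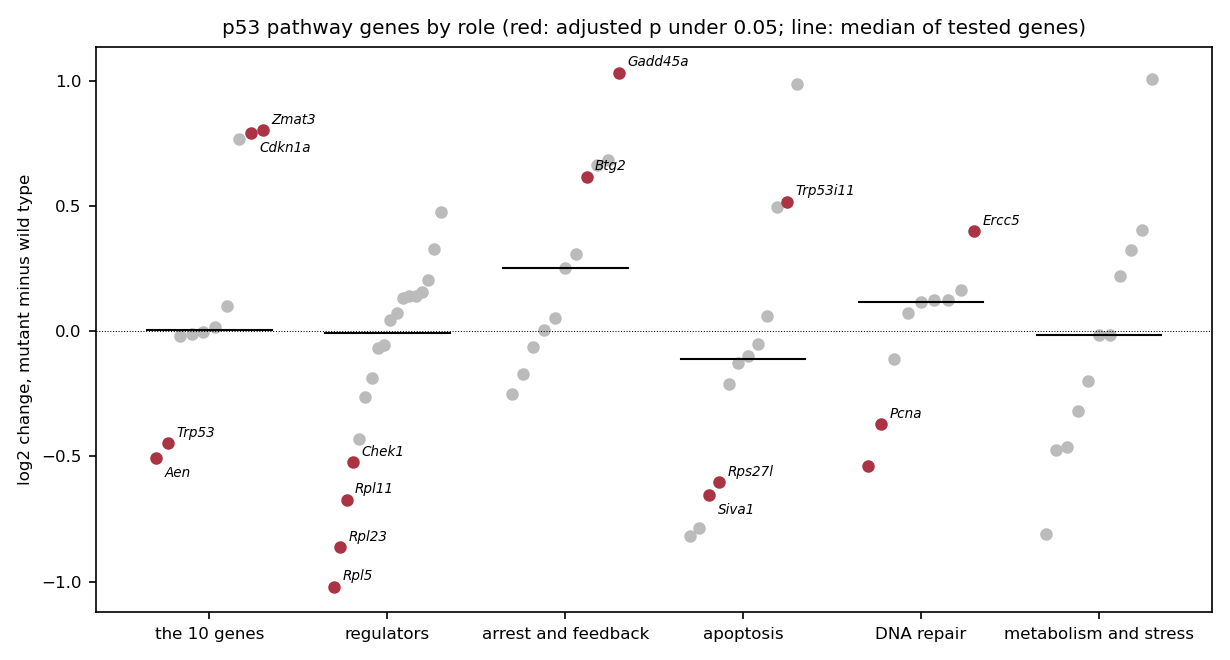
Log2 change, mutant minus wild type (vertical axis), of each tested gene of the p53 pathway, in columns for the 10 genes, the regulators and the 4 groups of other targets; red points are called (adjusted p under 0.05), those described in the text with their names, grey points are not called, and the black line is the median of each column. Called genes lie on both sides of 0 among the 10 genes, the genes of apoptosis and those of DNA repair, below 0 only among the regulators, and above 0 only in the group of arrest and feedback.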

How the data were processed

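RNA of 6 libraries was measured with the SMART-Seq v4 and Nextera XT kits and paired reads on an Illumina HiSeq, per the labels' protocols. These kits do not mark strand. The submitters' processing notes name STAR 2.5.3, featureCounts, DESeq2 1.20.0, mm10 and GRCm38. For annotation and counting options, the sources used here give nothing. The deposited values are a signal, read counts divided by 1 size factor per library by the authors. Every value was a whole multiple of 1 step per library, and 100.0% of 126810 values gave whole reads within 0.1 reads, with at least 20 reads per gene. On these reads edgeR called 3283 genes and DESeq2 4168.

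Symbols and positions came from GENCODE M21 (GRCm38), found for 21100 of 21135 genes. Promoter windows came from RefSeq (GRCm38.p6), matched by symbol. The planned search of 3000 bases around each start needed a genome that was not used here, so these windows of 300 bases replaced it. The genotype test was limma 3.58.1 in R 4.3.3 (lmFit, eBayes with a mean-variance trend, two-sided) on log2(value + 1), for 17815 genes whose mean was 10 or more, with Benjamini-Hochberg adjustment at 0.05. Fold values in the text are ratios of mean levels; log2 changes and their intervals are from the fit, and the log2(value + 1) scale understates changes of rare transcripts. Errors of levels are SD over 3 libraries and errors of log2 changes are SE. P-values measure the spread between libraries, which may be technical. Libraries of a group differed by more than counting error (chi-square over its degrees of freedom 26.7 to 55.3).

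The 10 genes and the lists were chosen with earlier results of these data known. The genes named were the 10, up to 4 genes of each list with the smallest p together with its called genes, Myc, and genes overlapping one of the 10. A called gene of the DNA repair list is counted but not reported here. Alternatives were other pseudocounts, filters, scalings and variance models, edgeR 4.0.16, DESeq2 1.42.0, voom, a replicate block and leaving out each library. Leaving out wild type replicate 1 and mutant replicate 3 together was chosen after seeing the data. The libraries left still differed between the genotypes in the summed immediate early and heat shock genes, so this subset cannot separate handling from genotype. On counts simulated for 17815 genes, limma recovered 14.9% of the 67 genes set to a 1.5-fold change, 49.3% of the 67 set to 2-fold and 72.7% of the 66 set to 4-fold, and 9% of its calls were false. Only these genes were changed in the simulation, a far smaller share than the 18.8% called in the data. These rates therefore do not give the sensitivity of the fit used here.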

Additional observations from a re-analysis of the deposited data

How the results depend on the processing

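Over 18 other ways of processing or subsetting the libraries the calls of Trp53 (log2 change -0.50 to -0.37) and Cdkn1a (0.60 to 0.93) kept direction and side of the threshold, that of Aen was lost in 1 and that of Zmat3 in 6, and Mdm2, Ccng1, Phlda3, Trp53inp1, Sesn2 and Perp were called in none (Perp in none of 17). When 1 library was left out, the genes called numbered 1905 to 2788 (819 to 1176 higher, 1086 to 1780 lower), and of the 10 genes 1 to 2 rose and 1 to 2 fell; the lowest count of called genes came without wild type replicate 2. Without wild type replicate 1 and mutant replicate 3 together, 1849 genes were called (811 higher and 1038 lower), and of the 10 genes 1 rose and 1 fell, with log2 changes of 0.0201 for Ccng1, -0.0078 for Trp53inp1 and 0.12 for Sesn2. Fewer libraries enter these fits.

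With the replicate block 1 of the 10 genes rose, since Zmat3 had an adjusted p of 0.0569, and Ercc5 missed the threshold as well (0.0561). The block called 3066 genes. Same-numbered libraries did not deviate together (correlations over genes of -0.02, -0.07 and -0.01), so the numbers were not taken as pairs.

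Signs turned for genes with changes near 0. With equal library totals the change was 0.049 for Ccng1, 0.0559 for Phlda3 and 0.0398 for Sesn2. With TMM scaling it was 0.00287 for Ccng1 and 0.00993 for Phlda3, with edgeR 0.00861 for Phlda3, with voom 0.00254 for Ccng1 and 0.00603 for Phlda3, and with library weights 0.0524 for Ccng1. Leaving out 1 library gave -0.0714 to 0.092 for Ccng1, -0.0532 to 0.0458 for Phlda3, -0.133 to 0.184 for Trp53inp1, -0.192 to 0.0757 for Sesn2 and -0.34 to 1.52 for Perp. Allowing 1 mismatch per decamer outside its central letters raised the genes among the 10 with a pair of decamers from 0 to 1. The motif search in wider windows was not run. Depth limits Perp, which rested on 34 wild-type and 78 mutant reads.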

Other observations

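Some p53 targets varied widely between libraries of the same genotype. Plk2, a polo-like kinase gene, had 677, 147 and 161 normalised reads in wild-type cells and 205, 179 and 833 in mutant cells, so that wild type replicate 1 and mutant replicate 3 were the highest of their groups. Pmaip1, which encodes the death protein Noxa, was at 793, 310 and 296 in the wild type and at 577, 559 and 1762 in the mutant, with the same 2 libraries on top. Plk3, a stress-activated kinase gene, was at 666, 360 and 332 in the wild type and at 508, 535 and 1167 in the mutant. The stress factor gene Atf3, listed here with the immediate early and heat shock genes and not with the p53 targets, was at 239, 7.64 and 9.79 in the wild type and at 19.0, 29.9 and 341 in the mutant. Immediate early and heat shock genes, a list that holds Atf3, summed highest in these 2 libraries too. In the wild type Cdkn1a (3206, 3097 and 2952) had the same order over the libraries as these sums. Among the mutant libraries replicate 2 was lowest in Cdkn1a and in the sums, while Cdkn1a was highest in replicate 1 and the sums in replicate 3. The part of handling in the change of Cdkn1a was not tested. For Plk2, Pmaip1, Plk3 and Atf3 mutant replicate 3 lay above wild type replicate 1. Mutant replicates 1 and 2 lay above wild type replicates 2 and 3 as well. These genes were chosen after their values were seen, and none was called.

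Genes near the 10 on their chromosomes were also looked at after the fact. Over all tested genes 7.94% were called higher and 10.9% lower, and the counts below were not tested against these shares. Within 1 Mb of Cdkn1a 34 genes were tested, of which 2 rose and 4 fell, with a median log2 change of 0.06. Within 1 Mb of Trp53 there were 75, of which 8 rose and 7 fell (median 0.17), within 1 Mb of Zmat3 12, of which 0 rose and 2 fell (median -0.06), and within 1 Mb of Aen 24, of which 4 rose and 3 fell (median -0.01).

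Several genes of the pathway were near the floor of the table or not analysed here. The p53-induced long noncoding RNA gene Trp53cor1 stayed at 13.2 normalised reads or less, and the death receptor gene Eda2r was at 0, 17.2 and 0 in the mutant libraries. Neither reached the mean of 10 needed for a test. The genes of the p53 relatives p63 and p73 and of the Mdm2 inhibitor p19Arf, and Ak1 among the targets, were not analysed here.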
